A study of Mus musculus with 4 samples.

Results

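The genes examined are 32 genes of the unfolded protein response and of the ATF4 response, out of 19938 named genes on the array. They were taken by symbol from probe sets with exactly 1 gene symbol, and all 32 were found. The members, and the further lists below, were chosen with earlier results of these data known. Their shares beside all genes are thus not independent of that knowledge. The 32 genes form an ATF4 arm of 17 genes and an endoplasmic reticulum (ER) chaperone arm of 15 genes. Expression was measured in mouse embryonic fibroblasts of C57BL/6 strain, prepared at E13.5, which lack both BAX and BAK, the effectors of mitochondrial apoptosis, and are transformed with SV40. All groups share this genotype and transformation. A control line was transduced with GFP-expressing retrovirus and another with virus expressing p63, a relative of p53 whose isoform is not stated, and each was mock-treated or given etoposide, a topoisomerase II poison, for 6 h. The stated etoposide dose is 10 µg/mL in the treatment protocol and differs in its volume unit elsewhere. The study's description names GFP with etoposide where the fourth sample's own labels say p63 with etoposide, and the sample's labels were followed. There was 1 array for each of the 4 groups, so no difference below has an error or a test, and each is given by its size. Each virus is represented by 1 transduced line, so p63 and any other difference between the lines cannot be told apart.

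Misfolded protein in the ER activates 3 sensors, PERK, IRE1 and ATF6. PERK and the related kinases GCN2, PKR and HRI phosphorylate eIF2α, which lowers general protein synthesis while the mRNA of the transcription factor ATF4 is translated more. ATF4 then drives genes of amino acid synthesis and uptake, tRNA charging and stress signalling, also when amino acids run short and the ER is not disturbed. ATF6 and spliced XBP1 drive a different set, the ER chaperones, disulphide isomerases and genes for the disposal of misfolded protein. Since ATF4, ATF6 and XBP1 are regulated largely at the level of translation, cleavage and splicing, an array reads their output through the target genes rather than through their own mRNA.

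Promoter motifs were counted in each arm. Windows from 250 bases before to 50 bases after the RefSeq start (GRCm38.p6) were given for 14 genes of the ATF4 arm and 13 of the ER arm. The C/EBP-ATF response element (CARE, searched as TGATGNAA on both strands) occurred in 5 of the 14 and in 1 of the 13, against 4.51% of all 27025 genes with a window. The ER stress response element (ERSE, searched as CCAAT and CCACG with 9 bases between them, on both strands) occurred in 0 of the 14 and 6 of the 13, against 0.137% of all genes. A related element, ERSE-II (ATTGG and CCACG with 1 base between them, on both strands), occurred in Herpud1 alone among the members, against 0.0444% of all genes. No matches of different motifs overlapped in the members' windows. A match describes the letters and not a bound site. The sequences below show the CARE of 4 genes of the ATF4 arm, the ERSE of 3 ER chaperone genes and both elements of Herpud1, read 5′ to 3′ on the gene's strand, with the motif in capitals.

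Asns, CARE, chr6:7693210-7693247, minus strand: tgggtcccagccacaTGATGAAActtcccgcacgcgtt

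Chac1, CARE on the opposite strand, chr2:119351034-119351071, plus strand: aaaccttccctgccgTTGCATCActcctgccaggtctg

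Nupr1, CARE on the opposite strand, chr7:126625558-126625595, minus strand: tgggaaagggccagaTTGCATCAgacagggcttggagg

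Vldlr, CARE on the opposite strand, chr19:27216805-27216842, plus strand: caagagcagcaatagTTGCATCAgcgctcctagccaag

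Hspa5, ERSE, chr2:34772010-34772058, plus strand: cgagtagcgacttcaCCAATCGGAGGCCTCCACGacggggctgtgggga

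Hsp90b1, ERSE, chr10:86705623-86705671, minus strand: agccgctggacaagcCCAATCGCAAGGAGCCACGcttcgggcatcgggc

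Creld2, ERSE on the opposite strand, chr15:88819505-88819553, plus strand: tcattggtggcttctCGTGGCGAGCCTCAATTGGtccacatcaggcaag

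Herpud1, CARE on the opposite strand, chr8:94386302-94386339, plus strand: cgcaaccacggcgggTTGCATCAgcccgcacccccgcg

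Herpud1, ERSE-II, chr8:94386362-94386402, plus strand: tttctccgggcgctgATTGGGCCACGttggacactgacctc

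Chac1, Nupr1 and Vldlr carry the same 8 letters, TTGCATCA, and Herpud1 of the ER arm carries them too. Trib3 also matched, with TTACATCA just after its annotated start. Hsp90b1 held a further ERSE, and Calr, Dnajc3 and Pdia6 held 1 each.

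Values are the deposited log2 signals. A gene counts as called from a difference of 1, which means 2-fold. Of the 19938 genes, 10698 reached 5.87, the median of all named readings, on at least 1 array, and all 32 members were among them. The median of the genes kept was 7.48 in the mock p63 line and between 7.60 and 7.69 on the other arrays, so p63 minus GFP had an all-gene median of -0.14 without etoposide and 0.02 with etoposide. The mock p63 array differed most from the others. On it 78 genes lay at least 1 from each other array while those lay within 0.5 of one another, 0.729% of genes kept, against 1 to 22 genes on the others, and no member was among the 78. Trp63 read 4.87 and 5.59 in the GFP line and 8.75 and 9.29 in the p63 line, in the order mock and etoposide. Of 11 fibroblast markers 7 reached the filter, while Pdgfra, Thy1, Dcn and Lum were below it on all arrays. The summed log2 signal of the 11 markers ranged from 87.08 to 90.66. Over the 7 kept, p63 minus GFP had a median of -0.26 without and -0.04 with etoposide. Vim was lower in the p63 line by 0.56 and 0.42 (-0.56 and -0.42). It was the 1 marker of the 7 with both p63 arrays below both GFP arrays, against 21.2% of genes kept. Pdgfrb differed by -0.62 and -0.23, and Col1a2 by -0.26 and -0.31. S100a4 was higher with p63 by 0.29 and 0.30, and Col1a1, Col3a1 and Fn1 changed sign between the treatments. The part of these shifts in the differences below was not tested. Of markers of other cells, 0 of 5 endothelial genes reached the filter, as did 1 of 6 haematopoietic genes (Cd68) and 1 of 5 genes of simple epithelium (Krt8).

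The comparison of p63 with GFP separated the arms. Genes of the ATF4 arm read lower in the p63 line, by a median of 0.37 without and 0.44 with etoposide (log2 differences of -0.37 and -0.44), while the ER chaperone arm had medians of -0.03 and 0.12. The quartiles of all genes kept were -0.44 and 0.15 without etoposide, which enclose both arm medians, and -0.14 and 0.20 with it, which enclose the ER arm's median. In 12 of the 17 genes of the ATF4 arm, 70.6%, both p63 arrays lay below both GFP arrays, which was so for 21.2% of all genes kept and for 3 of 15 genes of the ER arm. With each array centred on its median, the count was 8 of 17, against 18.1% of genes kept, and 1 of 15, and after cyclic loess it was 11 of 17, against 18.7%, and 1 of 15. Without the mock p63 array, the remaining p63 array lay below both GFP arrays in 13 of 17 and 3 of 15 genes, against 32.2% of genes kept. Scaling also moved the arm medians. With arrays centred, the ATF4 arm stood at -0.16 without and -0.52 with etoposide, and the ER arm at 0.18 and 0.04, where the all-gene medians were 0.07 and -0.06. After cyclic loess the ATF4 arm stood at -0.18 and -0.43, and the ER arm at 0.16 and 0.09, where the all-gene medians were -0.03 and 0.01. As deposited, the median of the ATF4 arm minus that of the ER arm was -0.34 without and -0.55 with etoposide. A shift shared by an array's genes does not touch this value. The p63 comparisons under the 2 treatments share no array, but both set the same p63 line against the same GFP line. Most of these differences were small. At the 2-fold size, 2 of the 32 genes were called without etoposide, Shmt2 lower and Vldlr higher, against 6.18% of genes kept called in either direction, 3.76% lower and 2.42% higher. In etoposide-treated cells 0 of 32 were called, against 1.9% of genes kept. At a size of 1.5-fold in either direction, 9 of 32 were past it without etoposide, against 22.8% of genes kept. With etoposide 3 of 32 were, against 6.78%, so neither share of the pooled arms was far from that of all genes. By arm, 7 of 17 ATF4 genes (41.2%) were at least 1.5-fold lower without etoposide, against 16.1% of genes kept, and 1 of 15 ER genes. With etoposide it was 2 of 17 (11.8%), against 1.87%, and 0 of 15. Vldlr was past this size upward without etoposide, and Dnajb9 with it.

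**Figure D1:**
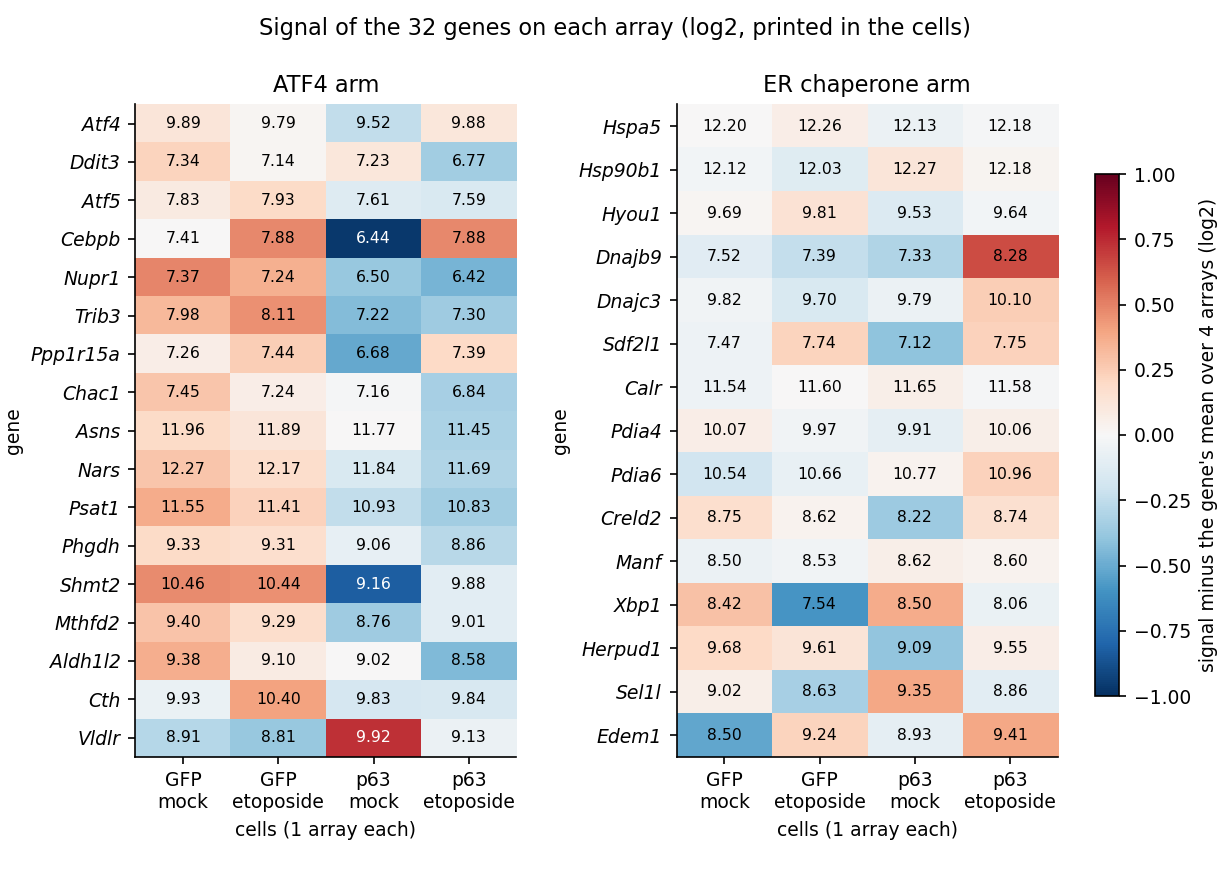
Heat map of the 32 genes (rows, ATF4 arm left, ER chaperone arm right) on the 4 arrays (columns), with the log2 signal printed in each cell and the colour showing the signal minus the gene's mean over the arrays. In the ATF4 arm the p63 columns are mostly blue, below the mean. Exceptions include Vldlr, at 9.92 and 9.13 against 8.91 and 8.81 in the GFP line, and the treated p63 readings of Atf4, Cebpb and Ppp1r15a.

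The stress regulators of the ATF4 arm were led by Nupr1 and Trib3. Nupr1, a small stress-induced chromatin protein, read 7.37 in mock-treated and 7.24 in etoposide-treated GFP cells, and 6.50 and 6.42 in the p63 line. Its p63 readings were 1.82-fold and 1.77-fold lower under the 2 treatments (-0.86 and -0.82). Trib3, a pseudokinase that binds ATF4 and AKT, read 7.98 and 8.11 in the GFP line and 7.22 and 7.30 in the p63 line, 1.68-fold and 1.76-fold lower. For both genes the lines did not overlap and the treatment moved the reading by under 0.2 in either line. Nupr1 and Trib3 were the only members at least 1.5-fold lower with p63 under both treatments, a size reached by 1.23% of genes kept.

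The transcription factors Atf4, Ddit3 and Atf5 differed less than Nupr1 and Trib3. Atf4 read 9.89, 9.79, 9.52 and 9.88 across GFP mock, GFP etoposide, p63 mock and p63 etoposide, and the lines overlapped. Ddit3, which encodes the pro-death factor CHOP, read 7.34, 7.14, 7.23 and 6.77 in the same order, with its lowest value in the treated p63 line. Atf5, a relative of ATF4 that is also translated under stress, was lower with p63 by 0.22 and 0.34 (-0.22 and -0.34), with no overlap of the lines. Averaged over the treatments, the difference of Atf4 (-0.14) was the smallest in size among the 17 genes. It averages -0.37 without etoposide, equal to the arm's median, and 0.09 with it. The averaged difference of Ddit3 was -0.24. Without etoposide Ddit3 differed by -0.11, close to the median of all genes kept, -0.14.

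Cebpb and Ppp1r15a differed between the lines mainly without etoposide. Cebpb, a bZIP factor that dimerises with ATF4 and CHOP, read 7.41 and 7.88 in the GFP line and 6.44 and 7.88 in the p63 line, so the lines differed by -0.98 without etoposide and by 0.00 with it. Ppp1r15a, the phosphatase subunit GADD34 that reverses eIF2α phosphorylation, read 7.26 and 7.44 in the GFP line and 6.68 and 7.39 in the p63 line. Both had a single low reading, on the mock p63 array, which also stood apart for other genes. The part of that array in these differences was not tested.

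Enzymes of amino acid and one-carbon metabolism form another group in the arm. Psat1, the aminotransferase of serine synthesis, read 11.55 and 11.41 in the GFP line against 10.93 and 10.83 in the p63 line, differences of -0.62 and -0.58. Phgdh, which starts that pathway, was lower by 0.27 and 0.45 (-0.27 and -0.45). Shmt2, the mitochondrial enzyme that splits serine into glycine and a one-carbon unit, read 10.46 and 10.44 in the GFP line, 9.16 in the mock and 9.88 in the treated p63 line. Its 2.47-fold lower reading in the mock p63 line was the largest difference of any member between the lines, and with etoposide it was 1.47-fold lower. In each of these genes all p63 readings lay below all GFP readings. Mthfd2, which acts after Shmt2 in mitochondrial folate metabolism, differed by -0.64 and -0.28, and Aldh1l2, which releases that carbon as CO2, by -0.36 and -0.52.

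Asns, asparagine synthetase, read 11.96 and 11.89 in the GFP line and 11.77 and 11.45 in the p63 line. Nars, the asparaginyl-tRNA synthetase, read 12.27 and 12.17 against 11.84 and 11.69. Cth, which makes cysteine from cystathionine, read 9.93 and 10.40 in the GFP line and 9.83 and 9.84 in the p63 line, so its gap of -0.56 under etoposide came with a higher reading in treated GFP cells. Chac1, which degrades glutathione, differed by -0.29 and -0.40. All 4 genes had both p63 arrays below both GFP arrays as deposited. With arrays centred on their medians this held for Nars among them, and after cyclic loess for Asns, Nars and Chac1 but not Cth.

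Vldlr, a lipoprotein receptor and ATF4 target, was the 1 gene of the arm that was higher with p63 under both treatments. It read 8.91 and 8.81 in the GFP line, 9.92 in the mock p63 line and 9.13 in the treated p63 line. Its promoter holds the same TTGCATCA as those of Nupr1 and Chac1, whose readings were lower with p63.

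**Figure D2:**
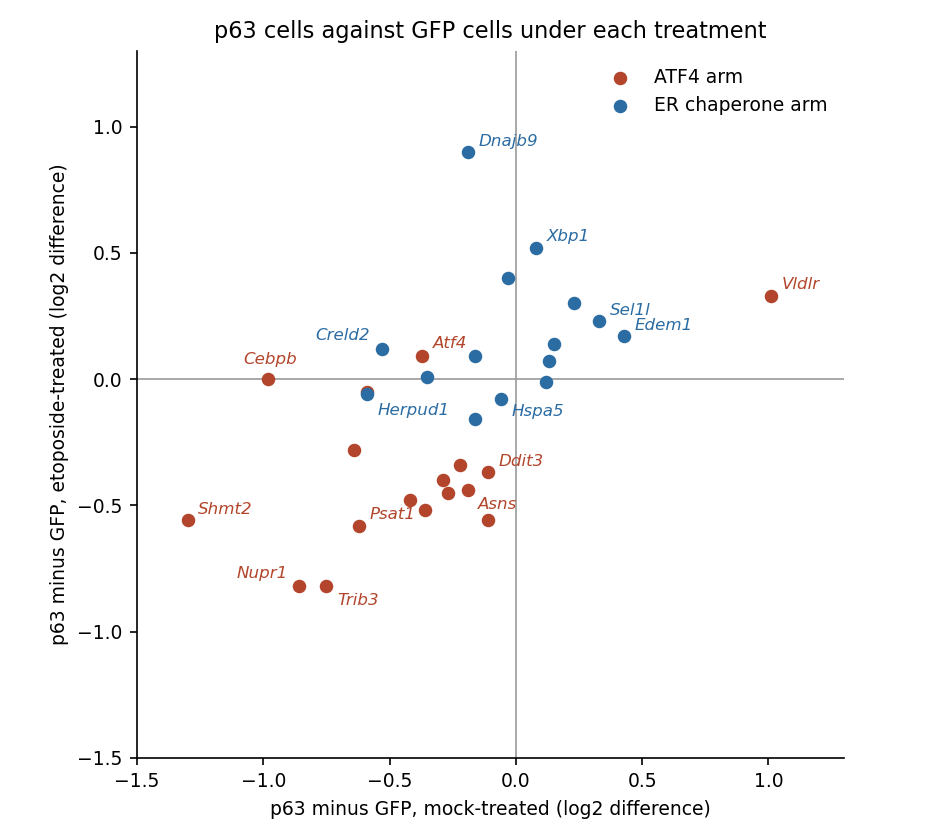
Log2 difference p63 minus GFP without etoposide (horizontal) against that with etoposide (vertical), 1 point per gene, red for the ATF4 arm and blue for the ER chaperone arm. Of 17 red points 15 lie below 0 on both axes, against 3 of 15 blue points.

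By sign, 15 of 17 genes of the ATF4 arm were below 0 with p63 under both treatments, against 34.2% of genes kept, and 3 of 15 genes of the ER arm. The exceptions in the ATF4 arm were Atf4 and Vldlr. After arrays were centred, 12 of 17 remained below 0 under both treatments, against 32% of genes kept, since Ddit3, Asns and Cth joined the exceptions. After cyclic loess 14 of 17 remained, against 32.5%, with Cth as the third exception.

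The chaperones proper were the steadiest members. Hspa5, the ER Hsp70 known as BiP and the usual reporter of ER stress, read 12.20, 12.26, 12.13 and 12.18 across GFP mock, GFP etoposide, p63 mock and p63 etoposide. That is a range of 0.13 over all 4 arrays. Calr, the glycoprotein chaperone calreticulin, had a range of 0.12, Manf, a secreted ER stress factor, of 0.13, and Pdia4, a disulphide isomerase, of 0.16. For Pdia4 this holds for the brighter of its probe sets only, since the dimmer one read 6.15, 5.36, 6.42 and 5.74 in that order. Hsp90b1, the ER Hsp90 known as GRP94, read 12.12, 12.03, 12.27 and 12.18 in the same order, and Hyou1, a nucleotide exchange factor for BiP, 9.69, 9.81, 9.53 and 9.64. By the brightest probe set of each gene, these 6 genes had the smallest ranges of all 32, and the smallest range in the ATF4 arm was 0.34, of Atf5. Pdia6, another isomerase, was higher with p63 by 0.23 and 0.30, with no overlap of the lines. The ERSE thus occurred both in promoters of genes with ranges under 0.3, such as Hspa5, Hsp90b1 and Calr, and in that of Creld2, with a range of 0.53.

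The other genes of the ER arm varied more and in different patterns. Dnajb9, the BiP cochaperone ERdj4 and an XBP1 target, read 7.52, 7.39 and 7.33 on the first 3 arrays and 8.28 in the treated p63 line, where it stood alone. Creld2, Herpud1 and Sdf2l1 had their lowest readings in the mock p63 line, at 8.22, 9.09 and 7.12, against 8.62 to 8.75, 9.55 to 9.68 and 7.47 to 7.75 elsewhere. Creld2 is an isomerase-like ER protein, Herpud1 a membrane protein of ER-associated degradation, and Sdf2l1 a partner of ER Hsp40 proteins. Dnajc3, which inhibits PERK, had a range of 0.40.

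Further lists covered the wider pathway. Of 24 other ATF4 targets kept, 14 had both p63 arrays below both GFP arrays and 2 had both above, with medians of -0.52 and -0.23 in mock-treated and etoposide-treated cells. Of 17 cytosolic tRNA synthetases other than Nars, 13 had both p63 arrays below and 0 above, with medians of -0.42 and -0.30. Of 32 other genes of ER folding and degradation, 2 had both p63 arrays below and 8 above, with medians of 0.09 and 0.18. In all genes kept, 21.2% had both below and 12.9% both above. For every list beyond the arms, such counts are on the deposited scale only and were not repeated after rescaling. In the ATF4 arm, centring the arrays took the count of genes with both p63 arrays below from 12 to 8.

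Among those ATF4 targets Slc7a3, a transporter of cationic amino acids, was called lower with p63 under both treatments, the 1 gene of the list to be so, against 0.486% of genes kept. It read 8.36 and 8.24 in the GFP line and 6.85 and 6.95 in the p63 line, 2.86-fold and 2.45-fold lower. Etoposide minus mock was -0.12 in the GFP and 0.11 in the p63 line. Psph, the phosphatase that completes serine synthesis after Phgdh and Psat1, differed by -1.11 and -0.92, and Gpt2, a mitochondrial alanine aminotransferase, by -1.17 and -0.77. Slc7a11, the cystine transporter, differed by -0.91 and -0.85 and Pck2, the mitochondrial PEP carboxykinase, by -0.68 and -0.62. Of the 24 targets, 17 were below 0 with p63 under both treatments, against 34.2% of genes kept. Another 4, Ddit4, Slc38a2, Cebpg and Vegfa, were above 0 under both, against 24.8%. Slc38a2 differed by 0.39 and 0.42, and Cebpg by 0.27 and 0.06.

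**Figure D3:**
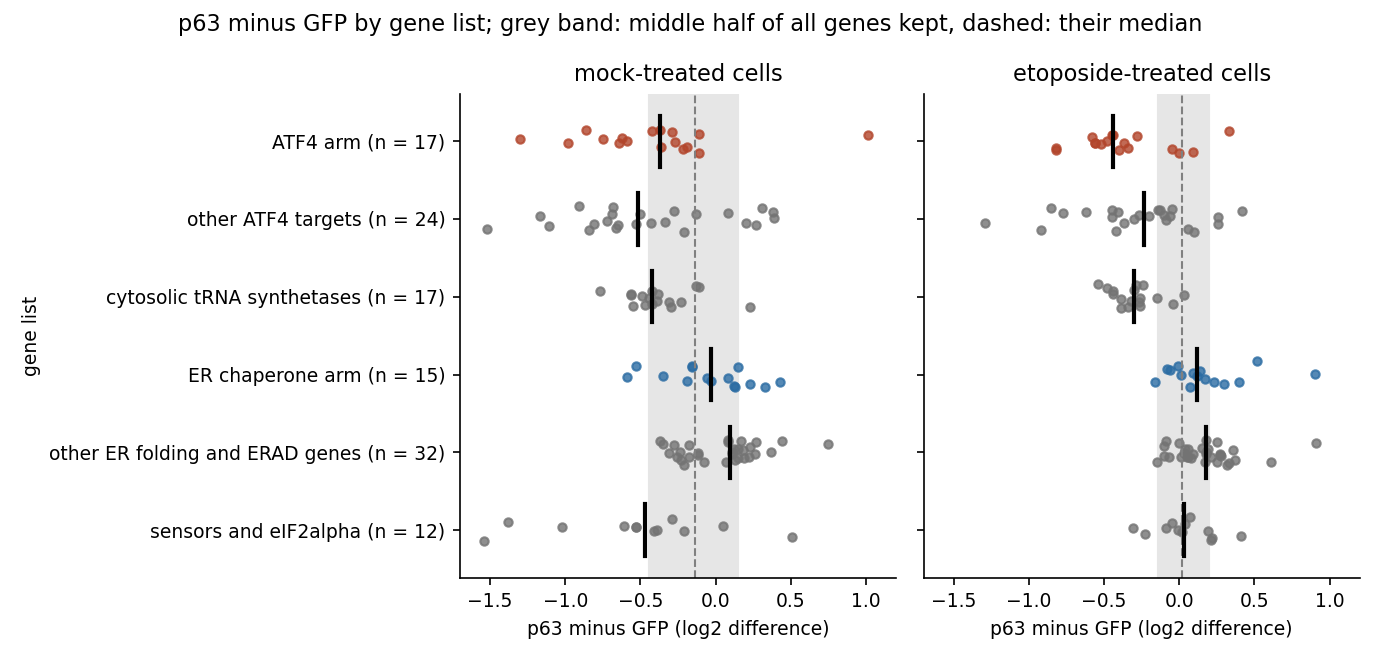
Log2 difference p63 minus GFP (horizontal) of each gene kept in 6 lists (rows), without etoposide on the left and with it on the right. Black bars are list medians, the grey band spans the quartiles of all 10698 genes kept and the dashed line is their median. In etoposide-treated cells the medians of the ATF4 arm (-0.44), the other ATF4 targets (-0.23) and the tRNA synthetases (-0.30) lie left of the band, whose lower edge is -0.14. Without etoposide the band starts at -0.44, and the ATF4 arm (-0.37) and the tRNA synthetases (-0.42) lie inside it, while the other ATF4 targets (-0.52) lie left of it.

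The 12 sensors and eIF2α genes kept had a median that differed between treatments. It was -0.47 without etoposide, near the lower quartile of all genes (-0.44), and 0.03 with etoposide. Atf6 read 8.58, 8.32, 7.04 and 8.01 across GFP mock, GFP etoposide, p63 mock and p63 etoposide. Ern1, which encodes IRE1, read 7.49, 7.53, 6.48 and 7.75 in that order, and Eif2ak2, the interferon-induced kinase PKR, 9.90, 8.93, 8.52 and 8.69. For Atf6 and Ern1 the reading of the mock p63 line stood below the other 3. Eif2ak3, which encodes PERK, ran the other way, at 7.18 and 7.30 in the GFP line and 7.69 and 7.71 in the p63 line. The sensors named here were chosen after their values were seen.

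Etoposide breaks DNA, and few members differed between treated and mock arrays. In GFP cells 0 of 32 genes differed by at least 1, against 5.65% of genes kept, and in the p63 line 1 of 32, Cebpb, against 7.61% either way and 6.28% higher. At 1.5-fold in either direction the counts were 2 of 32, against 18.8% of genes kept, and 6 of 32, against 22%. The ATF4 arm had medians of -0.10 in the GFP line and -0.09 in the p63 line, and the ER arm -0.07 and 0.15, where all genes kept had -0.08 and 0.10. With arrays centred, the arms stood at 0.00 and 0.02 in the GFP line and at -0.29 and -0.05 in the p63 line, so the sign of these medians is not settled. The all-gene medians were then 0.01 in the GFP line and -0.10 in the p63 line. The ATF4 arm minus the ER arm was -0.02 in the GFP line and -0.24 in the p63 line. The comparison in the p63 line uses the mock p63 array, which also enters the p63 comparison without etoposide.

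By contrast, 3 of the 24 other ATF4 targets were called higher in both lines, a size reached by 2.57% of genes kept. They are Atf3, Sesn2 and Ddit4, which are also known as targets of p53. Whether p53 had a part in this in these SV40-transformed cells was not tested. Atf3, a stress-induced repressor, read 7.46 and 7.03 in mock-treated and 9.44 and 8.99 in etoposide-treated GFP and p63 cells, 3.94-fold and 3.90-fold higher. Ddit4, an inhibitor of mTORC1, was 3.64-fold and 4.12-fold higher, and Sesn2, a leucine sensor upstream of mTORC1, 2.53-fold and 3.19-fold. Over the 24 targets the medians were -0.02 in the GFP line and 0.12 in the p63 line. Ddit3 and Chac1, which stand beside Atf3 in the ATF4 pathway, had etoposide differences of -0.20 and -0.46 and of -0.22 and -0.32.

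**Figure D4:**
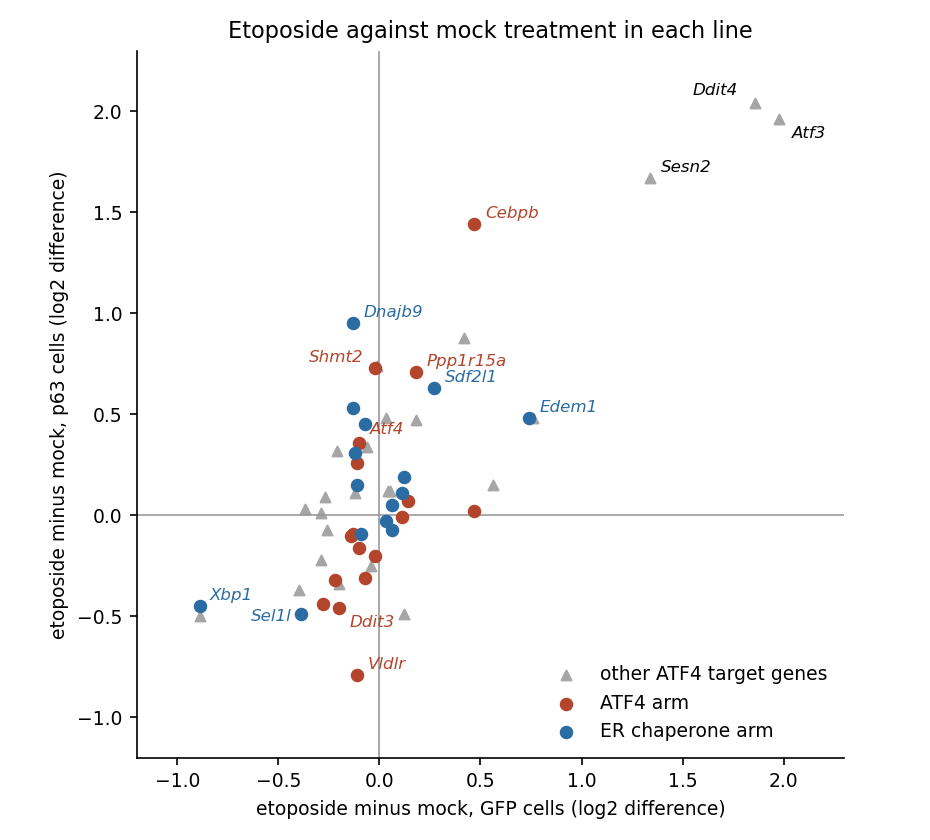
Log2 difference etoposide minus mock in the GFP line (horizontal) against that in the p63 line (vertical), 1 point per gene. Red points are the ATF4 arm, blue points the ER chaperone arm and grey triangles the 24 other ATF4 targets kept. Most members lie near 0, Cebpb lies at 0.47 and 1.44, and Atf3, Sesn2 and Ddit4 lie at the upper right.

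Only 7 of the 32 members had both etoposide arrays on 1 side of both mock arrays. Both were above in Cebpb, Ppp1r15a, Sdf2l1 and Edem1 (4 genes, against 23.8% of genes kept) and below in Ddit3, Xbp1 and Sel1l (3 genes, against 22.1%), so both shares were below those of all genes. Edem1, a lectin that hands misfolded glycoproteins to degradation, read 8.50 and 8.93 in mock-treated and 9.24 and 9.41 in etoposide-treated GFP and p63 cells. Xbp1 read 8.42 and 8.50 on the mock and 7.54 and 8.06 on the etoposide arrays, 1.85-fold and 1.36-fold lower. A gene-level signal does not tell spliced from unspliced Xbp1 mRNA. Sel1l, the scaffold of the ubiquitin ligase that clears ER proteins, was lower by 0.39 and 0.49 (-0.39 and -0.49). These 2 genes of ER-associated degradation thus differed in opposite directions.

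Cebpb had the largest etoposide difference among the members, 1.44 in the p63 line (2.72-fold), against 0.47 in the GFP line (1.38-fold). Both etoposide-treated lines reached 7.88, and the difference lay in the mock-treated readings of 7.41 and 6.44. Dnajb9 was the 1 member whose etoposide difference was larger by at least 1 in p63 than in the GFP line, with 0.95 against -0.13, a gap of 1.08. Such a gap upward was found in 2.84% of genes kept and a gap of that size either way in 3.94%. The median gap of all genes kept was 0.20, and 95% of genes kept had a gap under 0.94 in size. Cebpb followed at 0.98 and Shmt2, with -0.02 in GFP and 0.73 in the p63 line, at 0.74. At the other end, Vldlr had -0.11 in the GFP line and -0.79 in the p63 line, a gap of -0.69. Cebpb, Shmt2 and Vldlr had their extreme reading on the mock p63 array, and Dnajb9 had it on the etoposide p63 array.

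In the lists of the wider pathway, 3 of the 12 sensors and eIF2α genes kept had such a gap upward of at least 1 (25%, against 2.84% of genes kept). They are Ern1 (0.04 in GFP and 1.27 in the p63 line), Atf6 (-0.26 and 0.97) and Eif2ak2 (-0.97 and 0.18). Ern1 is among the 78 genes for which the mock p63 array stood apart. Atf6 also had its lowest reading on that array, at 7.04, and Eif2ak2 had its highest on the mock GFP array, at 9.90. Sec24d, a coat protein of vesicles leaving the ER, and Fkbp14, an ER prolyl isomerase, were lower by at least 1 after etoposide in the GFP line (-1.04 and -1.08), as were 2.12% of genes kept, and stood at -0.65 and -0.91 in the p63 line. Of the 32 other ER folding and degradation genes, 13 had both etoposide arrays below both mock arrays, 40.6% against 22.1% of genes kept, and 5 had both above, 15.6% against 23.8%. The tRNA synthetases, lower with p63, had etoposide medians of -0.12 and -0.08.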

How the data were processed

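Affymetrix arrays measured biotinylated cDNA amplified from total RNA, per the labels' protocols. The authors deposited RMA signals on the log2 scale. RMA and Affymetrix Expression Console are named, without versions, in the submitters' processing notes. RMA includes quantile normalization, which largely removes a shift shared by most genes. That the scale is log2 follows from the values, which run up to 14.4.

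Of 35512 probe sets, 21789 had exactly 1 gene symbol in a platform annotation of 2016, 1621 had several and 12102 had none. Each of 19938 genes was represented by its brightest probe set, by mean. Genes whose top reading fell short of the 50th percentile, 5.87, were dropped, and 10698 stayed. Samples were grouped by virus and treatment in their labels, with 1 array per group, so differences were taken without a test. The number of arrays limits the precision, and a level of one gene is not set against that of another. Some names in the lists were matched through RefSeq synonyms (GRCm38.p6). Promoter sequences come from RefSeq (GRCm38.p6).

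The rule for naming genes took all 32 members and from each further list the genes called in both lines or under both treatments. Others were named after their values were seen. The members and lists were chosen with earlier results of these data known. Alternatives were no filter, the 75th percentile (7.82), a 1.5-fold size, a median over each gene's probe sets, arrays centred, cyclic loess (limma 3.58.1) and a floor at the filter. The calling of genes and the motif search were tested on simulated data. Python 3.11.15 and pandas 2.3.3 were used.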

Additional observations from a re-analysis of the deposited data

How the results depend on the processing

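The median of the ATF4 arm minus that of the ER arm stayed within 0.1 of its value in all 4 comparisons under the 3 alternatives that could move it, the filter at the 75th percentile, the median over probe sets and cyclic loess. The other 4 leave it the same by construction. Calling genes at 1.5-fold in place of 2-fold raised the members called after etoposide from 0 to 2 in GFP cells and from 1 to 6 in p63 cells, and with p63 from 2 to 9 in mock-treated and from 0 to 3 in etoposide-treated cells. The shares of all genes at that size were 18.8%, 22%, 22.8% and 6.78%. The other alternatives kept these counts within 1.5 times. Alternatives chosen after seeing the data concerned the genes with p63 below both GFP arrays. Centring the arrays left 8 of the 12 in the ATF4 arm and 1 of the 3 in the ER arm, and cyclic loess left 11 and 1. When the mock p63 array was set aside, the other p63 array lay below both GFP arrays in 13 of 17 and 3 of 15 genes, against 32.2% of genes kept. No paired analysis was possible because each group has 1 array and the groups share a single replicate number. An additive fit of virus and treatment, with the difference of differences as its error, was not run. A single array per group limits every value.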

Other observations

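Lists written after the members' values had been seen covered neighbouring stress and folate genes. Of 11 mitochondrial chaperones and proteases, 4 had both p63 arrays below both GFP arrays (36.4%, against 21.2% of genes kept) and 0 had both above (against 12.9%). The 4 were the chaperonin pair Hspd1 (-0.55 and -0.40 in mock-treated and etoposide-treated cells) and Hspe1 (-0.65 and -0.28), the mitochondrial Hsp70 gene Hspa9 (-0.70 and -0.43) and the protease gene Clpp (-0.25 and -0.20). The list's medians were -0.25 and 0.01, where all genes kept had -0.14 and 0.02. After etoposide 5 of the 11, Lonp1, Clpx, Yme1l1, Afg3l2 and Htra2, had both etoposide arrays below both mock arrays (45.5%, against 22.1% of genes kept) and 0 had both above (against 23.8%).

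Among 10 other folate and one-carbon genes kept, 7 were below 0 with p63 under both treatments, against 34.2% of genes kept, and 3 had both p63 arrays below both GFP arrays, Mthfd1l, Sfxn1 and Atic, against 21.2%. The list's medians were -0.27 and -0.13. Atic, a cytosolic enzyme of purine synthesis, differed most, by -1.23 and -0.37, and Mthfd1l, a mitochondrial enzyme, by -0.65 and -0.32. The cytosolic enzymes Gart (-0.43 and -0.17), Shmt1 (-0.26 and -0.35) and Mthfd1 (-0.08 and -0.09) were also below 0. Mthfd1 was higher after etoposide by 0.51 and 0.50 in GFP and p63 cells, and 6 of the 10 had both etoposide arrays above both mock arrays, against 23.8% of genes kept. Aldh1l1, the cytosolic relative of Aldh1l2, read 4.93 and 5.16 in mock-treated and 6.09 and 6.11 in etoposide-treated cells, close to the filter of 5.87.

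The 2 probe sets of Dnajc3 held the same values on all arrays. Those of Pdia4 differed, with p63 minus GFP at -0.16 and 0.09 for the brighter and at 0.27 and 0.38 for the dimmer, which read 5.36 to 6.42. Etoposide minus mock in GFP and p63 cells was -0.11 and 0.15 for the brighter and -0.79 and -0.68 for the dimmer.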
